A study of Mus musculus with 4 samples.

Results

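Rab GTPases are the largest family of small GTP-binding proteins that direct vesicle traffic. Each sits on particular membranes and switches between a GDP-bound resting form and a GTP-bound form that recruits effectors such as tethers and motors. Guanine nucleotide exchange factors (GEFs) load a Rab with GTP, GTPase-activating proteins (GAPs) end its active state, and the escort, prenylation and GDI proteins attach Rabs to membranes or take them off. Mast cells store histamine and proteases in secretory granules, and Rab27a, Rab27b, Rab3d and Rab37 are among the Rabs known for work on secretory granules, while Rab5 and Rab7 proteins act on the endosomes through which granules mature and receptors are taken up.

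The Rab genes were taken as all gene spots of the arrays whose gene name is Rab directly followed by a number and an optional letter. This gave 111 spots, 102 probes and 54 genes, of 43379 spots, 41174 probes and 27962 gene names on the array. The cells were mouse mucosal mast cells differentiated in vitro, either kept unstimulated or given interleukin 18 (IL-18), a relative of IL-1 that is released in inflammation. There were 4 biological replicates, each on 1 two-colour array that held the IL-18 sample in Cy5 and its own unstimulated control in Cy3. The labels give no mouse strain, IL-18 dose or duration, and all arrays have the same dye orientation, so a dye effect and an effect of IL-18 on a probe cannot be told apart. Replicates 1 and 2 lay on 1 slide and replicates 3 and 4 on another.

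All 12 mast cell markers on the array were well above background in both channels on all 4 arrays, Mcpt1 and Mcpt2 of the mucosal type included. So were 7 of 7 macrophage and 3 of 3 basophil markers, against 1 of 7 for neutrophils (Camp, Ela2 and Ngp on no array), 1 of 5 for eosinophils (Epx and Prg2 on no array), 1 of 5 for B cells, 1 of 5 for fibroblasts, 2 of 6 for T cells, 2 of 5 for megakaryocytes, 3 of 5 for erythroid cells and 4 of 6 for dendritic cells. Summed net intensities of the macrophage markers ranged from 40583 to 48505 in the unstimulated channel and from 133439 to 152953 in the IL-18 channel, and those of the mast cell markers from 339710 to 387268 and from 1524581 to 1632391. The part of other cells in the Rab values was not tested. Mean raw spot intensity was 1156 to 1385 in Cy3 and 2968 to 3737 in Cy5, so the mean was higher in Cy5 on every array, while the median spot of replicate 2 read 102.4 in Cy3 and 101.2 in Cy5.

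After loess normalization of the dyes, most Rab transcripts lay close to their unstimulated level, and a minority passed the test in either direction. Of the 54 genes, 48 had a tested probe, and the brightest tested probe stood for the gene. With this normalization, fitted within each array, 6 of 48 Rab genes were higher with IL-18 (12.5%, against 19.7% of all tested genes) and 7 were lower (14.6%, against 13.7%) at an adjusted p under 0.05 in limma's moderated test. Together, 27.1% of Rab genes and 33.4% of all tested genes passed. The shares are near or below those of the array as a whole. The median log2 ratio of IL-18 over unstimulated was 0.01 for Rab genes and 0.04 for all tested genes, and the median size without its sign was 0.087 and 0.119. No Rab gene passed a log2 ratio of 1 in either direction; the lowest mean was -0.72 and the highest 0.33. The ratio had the same sign on all 4 arrays for 24 of 48 Rab genes (50%), against 58% of all tested genes.

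These counts rest on few arrays and on the dye normalization. Centring each array on its median log2 ratio in place of loess gave 37 Rab genes higher and 0 lower in limma (38 and 0 at an unadjusted p under 0.05, with 45 of 48 ratios above 0, and medians of 0.82 for Rab genes and 0.53 for all tested genes). The whole array shifted likewise, with 14449 of 16521 tested genes above 0. Of all 24104 tested probes, 14969 were higher and 371 lower at an unadjusted p under 0.05 in limma. Within slide 1 the counts were 5 higher and 6 lower, within slide 2 they were 3 and 7, and with slide as a fixed block 6 and 7. Without replicate 2 there were 1 higher and 4 lower, and without replicate 3 there were 1 and 5. Over all tested probes, 6106 were higher and 5228 lower in the main setting at an unadjusted p under 0.05 in limma. They were 4110 and 3263 within slide 1, 4125 and 4894 within slide 2, 4263 and 3614 without replicate 2, and 4453 and 3925 without replicate 3. Rab genes at this unadjusted cut were 8 and 8, 7 and 7, 4 and 8, 6 and 7, and 7 and 7 in the same order.

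**Figure D1:**
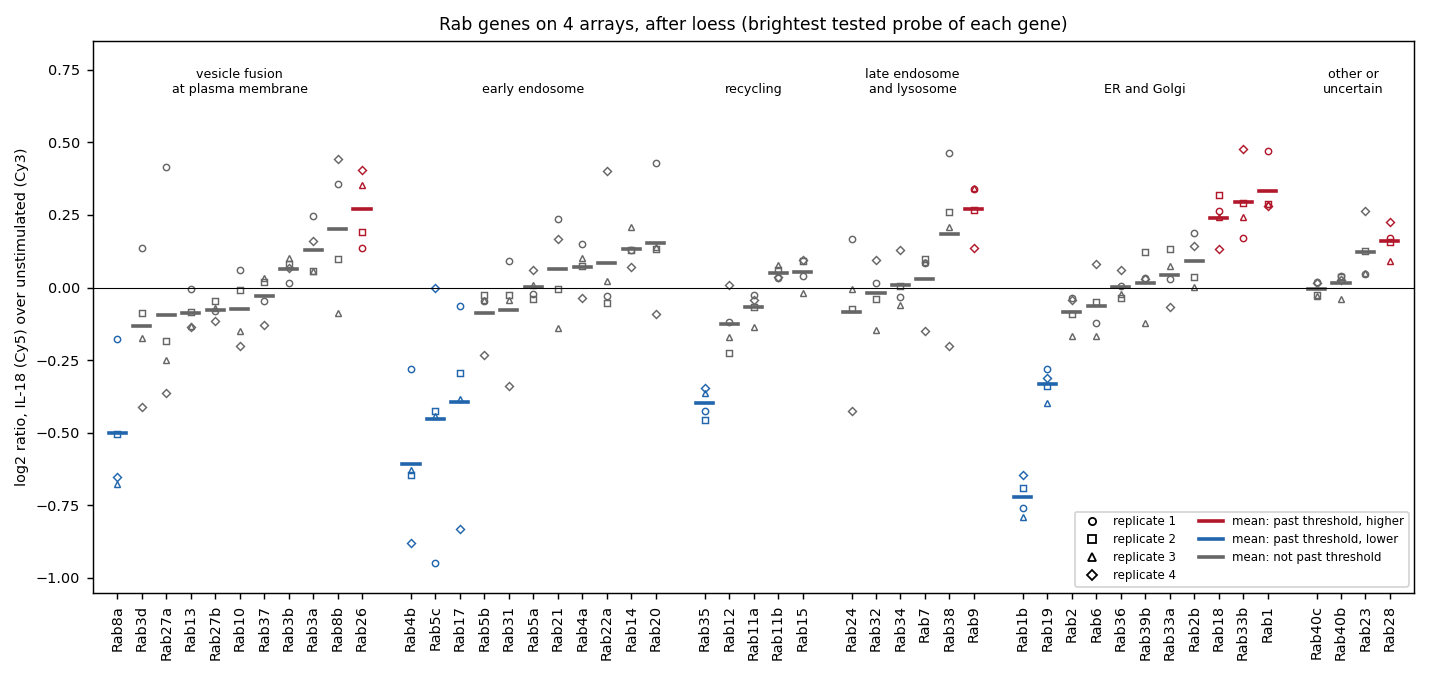
Log2 ratio of IL-18 (Cy5) over unstimulated (Cy3) after loess for the 48 tested Rab genes on each of 4 arrays (open symbols, 1 shape a replicate), with the mean as a bar, grouped by role and ordered by mean; red and blue are past an adjusted p of 0.05. The means run from -0.72 for Rab1b to 0.33 for Rab1, both of the ER and Golgi group, and under median centring every blue gene but Rab17 changes sign.

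Some close relatives stood apart. The array measured 14 pairs of Rab genes that share a number, in 10 families with 22 genes, and these pairs were compared after the single values had been seen. Each difference below is the log2 ratio of 1 gene minus that of its relative on the same array, named so that the mean is positive. An effect common to a whole array drops out of such a difference, and one that depends on brightness does so only in pairs of like brightness. A dye effect particular to a probe does not drop out. As all arrays have the same dye orientation, it cannot be told apart from an effect of IL-18. A two-sided exact sign-flip test over 4 arrays cannot give a p below 0.125, so none of the 14 could pass the threshold. In 8 of 14 pairs the sign was the same on all 4 arrays (p = 0.125 by the exact test, 0.219 after Benjamini-Hochberg adjustment over the 14). The ratios of single genes had the same sign on all arrays in 58% of all tested genes, and pairs of unrelated genes were not compared. The count of 8 is therefore not read as particular to Rab relatives.

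Rab1 (Rab1a by its current symbol) and Rab1b, which both serve transport from the endoplasmic reticulum (ER) to the Golgi, stood furthest apart. The log2 ratio of Rab1 was 0.47, 0.29, 0.29 and 0.28 on arrays 1 to 4 (mean 0.33 ± 0.09, SD, n = 4; limma adjusted p = 0.00567). That of Rab1b was -0.76, -0.69, -0.79 and -0.65 (mean -0.72 ± 0.07, adjusted p = 0.000665). The ranges are far apart, and the difference was 1.23, 0.98, 1.08 and 0.93 (mean 1.05 ± 0.13). In raw brightness, the Rab1 spot read 9892 to 12414 in Cy3 and 32170 to 47248 in Cy5, and the Rab1b spot 9176 to 11828 in Cy3 and 13488 to 17520 in Cy5. The Cy5 signal thus exceeded the Cy3 signal at both spots, and by more at the Rab1 spot on every array. Under median centring Rab1b turned positive (0.40), but Rab1 was then at 1.55 and the difference at 1.15. The size depended on the probe: over the 4 combinations of tested probes, the difference ran from 0.34 to 1.05, above 0 on every array in each of them.

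Rab8a and Rab8b, which act in exocytic traffic to the plasma membrane, also separated. Rab8a gave -0.18, -0.50, -0.67 and -0.65 (mean -0.50 ± 0.23, adjusted p = 0.00821), and its other probe gave -0.15, -0.48, -0.70 and -0.92 (mean -0.56 ± 0.33, adjusted p = 0.0143). Rab8b gave 0.36, 0.10, -0.09 and 0.44 (mean 0.20 ± 0.24, adjusted p = 0.123). Both Rab8a probes were lower on all arrays, though both turned positive under median centring (0.30 and 0.09), and the spread of Rab8b between arrays exceeded its mean. The difference, Rab8b minus Rab8a, was 0.53, 0.60, 0.59 and 1.09 (mean 0.70 ± 0.26), and 0.69 under median centring. All 6 combinations of probes gave a difference between 0.68 and 0.87, so here it did not hang on the choice of probe. Without replicate 2 the call of Rab8a was lost at both probes (adjusted p = 0.0536 and 0.0671), and without replicate 3 at the other probe (0.0701).

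Rab4a and Rab4b return cargo from early endosomes to the cell surface. Rab4a stayed near 0 with 0.15, 0.07, 0.10 and -0.03 (mean 0.07 ± 0.08, adjusted p = 0.268). Rab4b gave -0.28, -0.65, -0.63 and -0.88 (mean -0.61 ± 0.25, adjusted p = 0.00553; 0.09 under median centring). Each has 1 tested probe, of like brightness (mean log2 intensity 10.6 and 10.2), and the difference was 0.43, 0.72, 0.73 and 0.84 (mean 0.68 ± 0.18). It was 0.74 under median centring and 0.78 with the log ratio of the scanner software.

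Rab5a minus Rab5c, both of early endosome fusion, came to 0.93, 0.39, 0.45 and 0.06 (mean 0.46 ± 0.36), uneven between arrays as Rab5c was. The differences Rab1 minus Rab1b, Rab8b minus Rab8a, Rab4a minus Rab4b and Rab5a minus Rab5c stayed above 0 under all 19 alternative settings, with ranges of 0.96 to 1.73, 0.57 to 0.90, 0.57 to 0.80 and 0.26 to 1.10. The same held for Rab3a minus Rab3d (0.13 to 0.40) and Rab33b minus Rab33a (0.15 to 0.58). Rab27b minus Rab27a, by contrast, averaged 0.02 ± 0.34 and was below 0 in 8 of 19 settings. Rab2b minus Rab2 (0.18 ± 0.04) and Rab11b minus Rab11a (0.12 ± 0.07) had 1 sign on all arrays at the brightest probes, but changed sign with another choice of probe (-0.16 to 0.18 and -0.50 to 0.12). Rab2b minus Rab2 also turned to -0.18 under median centring. All 19 settings re-process the same arrays or some of them, and each pair was named so that its mean is positive. A sign kept over the settings is therefore no independent support for relatives moving apart. Rab1b, Rab8a, Rab4b and Rab5c also had the lowest means of all tested Rab genes (-0.72, -0.50, -0.61 and -0.45). The differences that subtract these genes thus largely restate their low values.

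**Figure D2:**
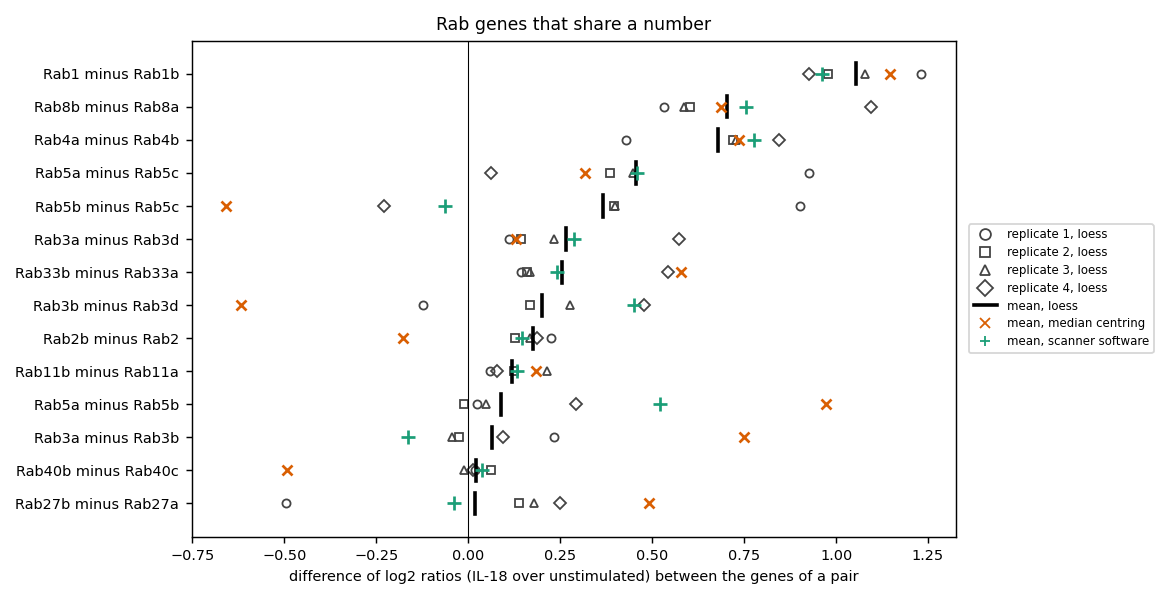
Difference of log2 ratios (IL-18 over unstimulated) between the genes of 14 Rab pairs that share a number, on each array after loess (open symbols), with the mean (bar) and the means under median centring (orange cross) and the scanner software's log ratio (green plus). Rab1 minus Rab1b, Rab8b minus Rab8a and Rab4a minus Rab4b lie right of 0 on all 4 arrays and under all 3 normalizations, while pairs of unlike brightness such as Rab5b minus Rab5c change sign with median centring. Each pair is named so that its mean after loess is positive, and the normalizations use the same arrays.

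The stretches of 250 bases before the annotated start of the Rab1 and Rab8 genes are shown because these pairs differed most after loess. CpG-rich promoters of this kind are typical of genes that are on in most tissues. No pair could pass the sign-flip test, and a dye effect of a probe cannot be told apart from an effect of IL-18. Sequences are RefSeq's, build GRCm38.p6, each printed 5′ to 3′ along its gene. Capitals mark the GC box, GGGCGG on either strand, which is the core that Sp1 family factors bind. Rab1 lies at chr11:20201162-20201411 (plus strand), Rab1b at chr19:5106997-5107246 (minus), Rab8a at chr8:72160950-72161199 (plus) and Rab8b at chr9:66919706-66919955 (minus).
Rab1: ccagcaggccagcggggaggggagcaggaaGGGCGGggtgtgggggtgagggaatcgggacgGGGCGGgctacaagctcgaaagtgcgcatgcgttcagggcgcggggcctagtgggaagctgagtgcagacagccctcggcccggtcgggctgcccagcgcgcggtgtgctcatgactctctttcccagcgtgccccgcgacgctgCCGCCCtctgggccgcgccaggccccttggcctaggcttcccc
Rab1b: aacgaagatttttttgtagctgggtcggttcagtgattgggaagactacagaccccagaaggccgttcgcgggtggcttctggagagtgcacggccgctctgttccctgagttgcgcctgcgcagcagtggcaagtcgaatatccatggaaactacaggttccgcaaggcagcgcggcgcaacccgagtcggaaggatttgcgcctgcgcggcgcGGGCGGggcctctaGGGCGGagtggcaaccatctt
Rab8a: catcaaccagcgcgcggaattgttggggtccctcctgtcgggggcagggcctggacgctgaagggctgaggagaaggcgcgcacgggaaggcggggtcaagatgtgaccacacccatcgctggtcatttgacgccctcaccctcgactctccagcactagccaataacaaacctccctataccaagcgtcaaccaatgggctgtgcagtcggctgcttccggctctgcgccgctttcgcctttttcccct
Rab8b: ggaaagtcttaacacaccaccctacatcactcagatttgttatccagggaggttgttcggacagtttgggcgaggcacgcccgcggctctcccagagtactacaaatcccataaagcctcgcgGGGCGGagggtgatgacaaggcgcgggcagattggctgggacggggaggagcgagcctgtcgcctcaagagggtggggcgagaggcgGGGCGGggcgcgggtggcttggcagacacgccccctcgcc

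The Rab1 window holds 3 GC boxes and 23 CpG, that of Rab1b 2 and 23, that of Rab8a 0 and 18, and that of Rab8b 2 and 20. None of the 4 holds an E-box (CACGTG), an AP-1 site (TGANTCA), a CRE (TGACGTCA) or an NF-kB site on either strand. Such windows were found for 45 of the 54 Rab genes, 54 windows in all, and GC boxes were in 66.7% of them against 32.7% of all 32851 windows of the table. The median was 16 CpG for Rab windows and 6 for all windows. E-boxes were in 5 Rab windows (9.26%, against 6.02% of all windows), AP-1 sites in 2 (3.70% against 6.75%), CREs in 2 (3.70% against 1.55%) and NF-kB sites in 3 (5.56% against 7.25%). Among Rab genes that passed the threshold, GC boxes were in 3 of 4 windows of the higher and 4 of 7 of the lower genes. A match of letters is a description of the window and no measured site.

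By role, the ER and Golgi Rabs held members at both ends. Of the 11 tested, 3 rose (Rab1, Rab18 and Rab33b), 2 were lower (Rab1b and Rab19) and 6 did not pass. The role groups are small, and their counts stand against 19.7% of all tested genes higher and 13.7% lower, so no count of a role group below is read as particular to it. Rab18, which acts at the ER and on lipid droplets, gave 0.26, 0.32, 0.24 and 0.13 (mean 0.24 ± 0.08, adjusted p = 0.0123). Rab33b, a Golgi Rab that also binds the autophagy factor Atg16L1, gave 0.17, 0.29, 0.24 and 0.48 (mean 0.30 ± 0.13, adjusted p = 0.0126). Both were above 0 on every array. Under median centring they gave 1.29 and 0.81, where the median of the Rab genes was 0.82. Rab19, a little studied Golgi Rab, was evenly lower with -0.28, -0.34, -0.40 and -0.31 (mean -0.33 ± 0.05, adjusted p = 0.00349), but gave 0.81 under median centring. The members that did not pass ran from -0.08 (Rab2) to 0.09 (Rab2b). A second probe of Rab18 gave -0.13 ± 0.21 (adjusted p = 0.240) and a second probe of Rab1 gave 0.02 ± 0.09 (adjusted p = 0.726), so neither rise was seen at every probe. The calls of Rab18 and Rab33b were lost without replicate 2 (adjusted p = 0.0822 and 0.0728) and without replicate 3 (0.0668 and 0.0549).

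Among the 11 early endosome Rabs, 0 were higher in limma and 3 were lower, namely Rab4b, Rab5c and Rab17. Rab14 alone was higher at an unadjusted p under 0.05 (0.13 ± 0.06, adjusted p = 0.0534), and the ratios of the scanner software gave 1 gene higher in this group. With the mean of its 3 tested probes Rab14 passed (0.17, adjusted p = 0.0457), so the count of 0 rests on the choice of probe. Rab5c, a Rab5 form that drives fusion of early endosomes, gave -0.95, -0.42, -0.44 and -0.0013 (mean -0.45 ± 0.39, adjusted p = 0.0420), so that 1 array lay far below 0 and 1 almost at it. Rab17, known from transcytosis in epithelia, gave -0.06, -0.29, -0.38 and -0.83 (mean -0.39 ± 0.32, adjusted p = 0.0391) at a dim probe with a mean log2 intensity of 7.6. These 2 had the widest spread of the 13 Rab genes that passed. Rab5c reversed to 0.61 under median centring, and its call was lost in 9 of 19 settings, among them those without replicate 1, 2 or 3 (adjusted p = 0.0524, 0.138 and 0.126). Rab17 kept its sign throughout, at -0.24 under median centring, and its call was lost in 6, among them those without replicate 2 or 3 (adjusted p = 0.116 and 0.121).

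Rab5a, the best known early endosome Rab, stayed close to 0 at its brightest probe, which gave -0.02, -0.04, 0.01 and 0.06 (mean 0.0024 ± 0.04, adjusted p = 0.969). That probe was printed in 10 spots on each array, and the SD among the 10 spots was between 0.024 and 0.043 on the log2 scale. The other Rab5a probe gave 0.33, 0.22, 0.09 and 0.39 (mean 0.26 ± 0.13, adjusted p = 0.0193). The 2 probes of Rab5a thus differ by more than the spread of either. The remaining early endosome members that did not pass ran from -0.09 (Rab5b) to 0.15 (Rab20), with Rab4a and Rab5a among them.

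Rab35 was the 1 recycling Rab of 5 that passed. It serves fast return of cargo from endosomes to the plasma membrane and gave -0.42, -0.45, -0.36 and -0.35 (mean -0.40 ± 0.05, adjusted p = 0.00206). The 4 arrays lay close together, although median centring turned the mean to 0.69. Rab11a, the main Rab of recycling endosomes, gave -0.03, -0.07, -0.14 and -0.04 at its brightest probe (mean -0.07 ± 0.05, adjusted p = 0.245) but 0.43, 0.33, 0.37 and 0.32 at another (mean 0.36 ± 0.05, adjusted p = 0.00263). The 2 sets of values do not overlap, and the mean of the higher one is the highest of all 83 tested Rab probes. Rab12, which takes cargo from recycling endosomes towards lysosomes, gave -0.12, -0.22, -0.17 and 0.01 (mean -0.13 ± 0.10, adjusted p = 0.102; -0.17 with adjusted p = 0.0379 without replicate 4), and a dimmer probe of it gave -0.42 ± 0.21 (adjusted p = 0.0109).

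Rab9 was the 1 late endosome and lysosome Rab of 6 that passed. It carries mannose 6-phosphate receptors back from late endosomes to the Golgi and gave 0.34, 0.27, 0.34 and 0.14 (mean 0.27 ± 0.10, adjusted p = 0.0106), above 0 on every array and 1.09 under median centring. Its call was lost without replicate 2 (adjusted p = 0.0670) and without replicate 3 (0.0648). Rab7, which governs late endosomes and their fusion with lysosomes, gave 0.08, 0.10, 0.09 and -0.15 (mean 0.03 ± 0.12, adjusted p = 0.692). A second Rab7 probe gave -0.01, -0.29, -0.43 and -0.67 (mean -0.35 ± 0.27, adjusted p = 0.0374; 0.56 under median centring), so on 3 arrays the probes had opposite signs.

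The Rabs of vesicle fusion at the plasma membrane include those known from secretory granules. Of 11 tested, Rab26 rose, Rab8a was lower and 9 did not pass, against 33.4% of all tested genes that passed in either direction. Rab26, a Rab of secretory granules in exocrine cells, gave 0.14, 0.19, 0.35 and 0.40 (mean 0.27 ± 0.13, adjusted p = 0.0157; 0.62 under median centring), at a dim probe (mean log2 intensity 8.2). Its call was lost without replicate 2 (adjusted p = 0.0654) and without replicate 3 (0.0825). A second, dimmer Rab26 probe gave -0.01 ± 0.05 (adjusted p = 0.846). That probe was well above background on 0 arrays in the unstimulated channel and on 4 in the IL-18 channel, through which alone it entered the test. Its ratio near 0 therefore says little about Rab26.

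None of the granule Rabs Rab3a, Rab3d, Rab27a, Rab27b and Rab37 passed at the brightest probe. Rab27b, which helps to dock mast cell granules at the plasma membrane, gave -0.08, -0.05, -0.07 and -0.11 (mean -0.08 ± 0.03, adjusted p = 0.174), and a dimmer probe gave -0.24 ± 0.14 (adjusted p = 0.0284); both turned positive under median centring (0.93 and 0.13). The mean of both Rab27b probes was lower (-0.16, adjusted p = 0.0292). Rab37 gave -0.05, 0.02, 0.03 and -0.13 (mean -0.03 ± 0.07, adjusted p = 0.628). The brightest probes of Rab27b and Rab37 had mean log2 intensities of 12.7 and 12.5, and none of the values at these 2 probes was lower than -0.13.

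Rab27a, the partner of Rab27b in granule docking, gave 0.42, -0.18, -0.25 and -0.36 (mean -0.10 ± 0.35, adjusted p = 0.566). Rab3d, found on granules of mast and exocrine cells, gave 0.14, -0.09, -0.17 and -0.41 (mean -0.13 ± 0.23, adjusted p = 0.255). In both, replicate 1 was above 0 and the other 3 arrays below it. Without replicate 1, Rab27a passed as lower (-0.27, adjusted p = 0.0129), as it did within slide 2 (-0.31, adjusted p = 0.0435), and Rab3d gave -0.22 (adjusted p = 0.0502). Rab3a, the synaptic vesicle Rab, was above 0 on every array with 0.25, 0.06, 0.06 and 0.16 (mean 0.13 ± 0.09, adjusted p = 0.0839, and 0.0495 with trend and robust variance). Rab3b had a probe that was not well above background in the unstimulated channel on any array but was in the IL-18 channel on all 4, through which alone it entered the test. Its ratio, 0.07 ± 0.04, did not pass (adjusted p = 0.25). In the group of other or uncertain role, Rab28 was the 1 of 4 that passed, with 0.17, 0.16, 0.09 and 0.23 (mean 0.16 ± 0.06, adjusted p = 0.0312), and its call was lost in 10 of 19 settings, among them each that left out 1 array (adjusted p from 0.0531 to 0.132). Its 2 other probes gave -0.14 ± 0.25 (adjusted p = 0.265) and -0.0028 ± 0.08 (adjusted p = 0.968), and the mean of the 3 was 0.0061 (adjusted p = 0.924). The probe at -0.0028 was well above background on 0 arrays in the unstimulated channel and on 3 in the IL-18 channel. It entered the test through the IL-18 channel alone, so its ratio near 0 says little about Rab28, and the mean of the 3 includes it.

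The 6 genes without a tested probe were Rab3c, Rab6b, Rab9b, Rab25, Rab30 and Rab39, whose probes did not clear the background in either channel on 3 or more arrays. Of all 102 Rab probes, 77 were above background in both channels on all arrays and 14 in neither channel on any array. No Rab spot was saturated or marked as an outlier by the scanner software. The tested Rab genes were brighter than the array's genes as a whole, with a median of the mean log2 intensity of 11.02 against 9.23.

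Loess left little relation between ratio and brightness among Rab genes, while median centring left a steep one. Across the 48 genes, which share arrays and are no independent replicates, the correlation of ratio with mean log2 intensity was -0.15 after loess, 0.80 after median centring and -0.09 with the log ratio of the scanner software. Loess removes a trend with brightness by design, so its low correlation was fixed in advance. The scanner software's ratios, which come from another dye correction of the same signals, followed the loess values with r = 0.92 and gave 7 Rab genes higher and 7 lower. At an unadjusted p under 0.05 in limma they gave 9 and 8 Rab genes, and 7755 and 5942 of all 24104 tested probes. Which normalization is apt was not tested. The 6 genes that rose were above 0 under median centring too, as were 45 of the 48, so that sign does not set them apart, and Rab33b (0.81) and Rab26 (0.62) lay below the Rab median of 0.82 there. Of the 7 lower ones, Rab17 alone stayed below 0 under median centring, and Rab1b, Rab4b, Rab5c, Rab8a, Rab19 and Rab35 did not.

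**Figure D3:**
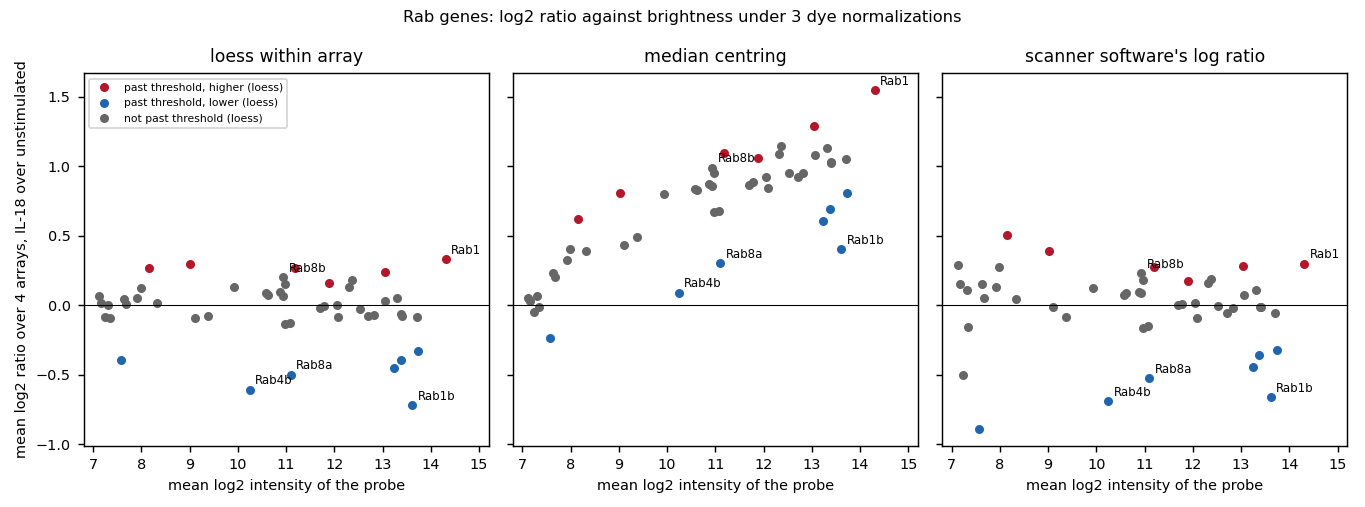
Mean log2 ratio of IL-18 over unstimulated (4 arrays) against mean log2 probe intensity for the 48 tested Rab genes, under loess (left), median centring (middle) and the scanner software's log ratio (right); colours give the call after loess. Under median centring the ratio climbs with brightness (r = 0.80) and 45 of 48 genes lie above 0, 6 of the 7 blue ones included. So do 14449 of all 16521 tested genes.

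Probes of the same gene often differed in sign or in call, which sets a limit on any statement about a gene from 1 probe. At the probe level, 12 of 83 tested Rab probes were higher (14.5%, against 18.1% of all tested probes) and 15 lower (18.1%, against 16.1%), which makes 32.5% in either direction against 34.1%. In 28 genes several probes were tested, and in 17 of these they had the same sign, and the distance between the lowest and highest probe had a median of 0.16 and ran from 0.02 to 0.45. Some of the others differed in sign only near 0 with no probe called, such as Rab40b (-0.02 and 0.02) and Rab2b (-0.05 and 0.09). In Rab12 (0.0016) and Rab26 (-0.01) the sign differed only through a probe well above background on 0 arrays in the unstimulated channel. The share of genes with probes of the same sign over the whole array is not given here. In no gene did probes pass the threshold in opposite directions. All probes passed in the same direction in 2 genes, Rab1b and Rab8a, both lower after loess and positive under median centring.

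In 12 genes the brightest probe did not pass while another did: Rab5a, Rab8b, Rab11a, Rab14, Rab21 and Rab22a with a higher probe, and Rab6, Rab7, Rab12, Rab27b, Rab31 and Rab40c with a lower one. The Rab22a probe was even across arrays, with 0.26, 0.27, 0.21 and 0.25 (mean 0.25 ± 0.03, adjusted p = 0.00671); Rab22a sorts cargo on early endosomes. The widest gap was in Rab40c, a Rab with a SOCS box, whose bright probe gave -0.0048 ± 0.03 and whose dim probe gave -0.46 ± 0.28 (adjusted p = 0.0173). The lower probes of Rab12, Rab31 and Rab40c stayed below 0 under median centring (-0.03, -0.23 and -0.41), unlike those of Rab6, Rab7 and Rab27b. The call of the Rab11a probe held without any 1 array. Those of Rab5a, Rab8b and Rab22a were lost without replicate 2 (adjusted p = 0.0847, 0.0644 and 0.0554), and the other 8 were lost both without replicate 2 and without replicate 3 (adjusted p from 0.0597 to 0.195). Probe sequences were not used here, so which transcript end or form each probe reads was not determined. With the mean of all tested probes standing for a gene, 4 Rab genes were higher and 11 lower. The share of all genes called with this averaging is not given here, so these counts are not read as particular to Rab genes.

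**Figure D4:**
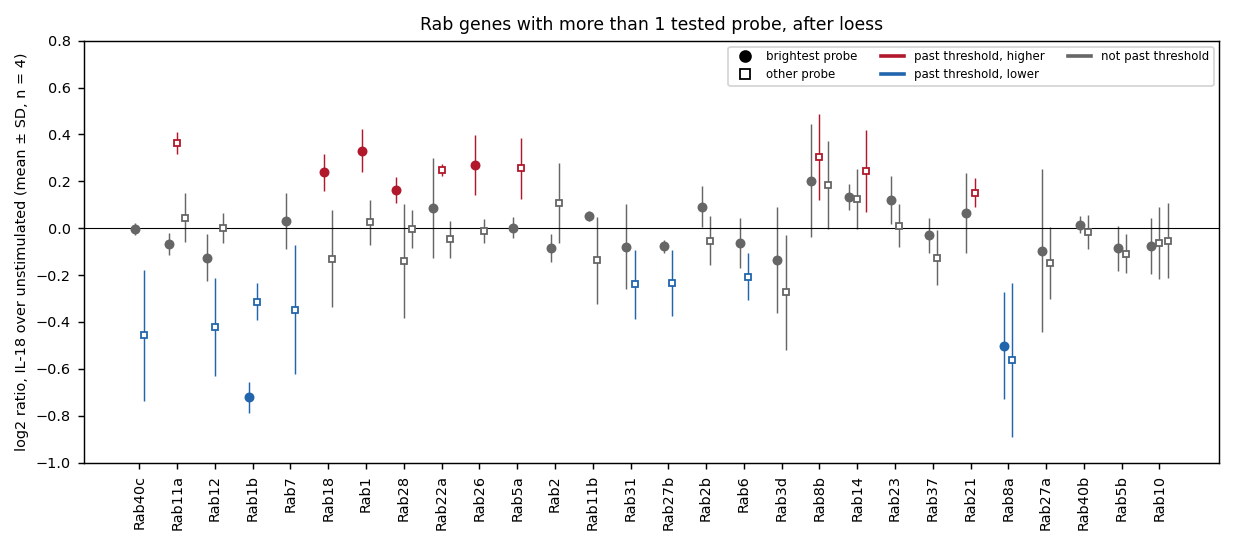
Mean log2 ratio of IL-18 over unstimulated after loess, with SD over 4 arrays, of every tested probe of the 28 Rab genes that have several (filled circle, brightest probe; open square, another), ordered by the distance between the probes of a gene. Both probes of Rab1b and of Rab8a are lower here (positive under median centring), while Rab11a has a higher probe at 0.36 beside its brightest at -0.07.

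The genes that load, unload, escort and read Rabs were called about as often as the array as a whole. Of 111 tested partner genes, 16 were higher and 21 lower (33.3% in either direction, against 33.4% of all tested genes), with a median log2 ratio of -0.02. Counts were 4 higher and 7 lower of 25 GEFs, 4 and 6 of 33 GAPs, 7 and 6 of 45 effectors, and 1 and 2 of 8 escort, prenylation and GDI genes. Without replicate 2 the partner counts were 6 and 5, without replicate 3 they were 4 and 8, and median centring gave 68 and 0 (limma, 74 and 0 at an unadjusted p under 0.05). Of the 19 partners named below, Rin3, Bicd2, Rbsn, Unc13d, Tbc1d23, Chm and Rabac1 kept their calls without any 1 array, and the other 12 lost theirs without replicate 2, without replicate 3 or in both cases (adjusted p from 0.0527 to 0.106).

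The GEF genes held the partners that moved most. Dennd3, the exchange factor of Rab12, gave 0.21, 0.84, 0.76 and 1.69 (mean 0.88 ± 0.61, adjusted p = 0.0217), above 0 on every array and uneven between them. Rin3, an exchange factor of Rab5 proteins that restrains mast cell responses to the Kit ligand, gave -0.65, -0.80, -0.69 and -1.25 (mean -0.85 ± 0.28, adjusted p = 0.00276), but 0.09 under median centring. Sbf1 (-0.50) was lower as well and stayed below 0 under median centring, without passing (-0.05). Gapvd1 (0.23), another exchange factor of Rab5 proteins, and Madd (0.26), the exchange factor of Rab3 and Rab27 proteins, were higher.

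Among effectors, Bicd2, the dynein adaptor that Rab6 recruits, gave 0.61, 0.44, 0.56 and 0.33 (mean 0.49 ± 0.12, adjusted p = 0.00269). Rbsn (rabenosyn, 0.41), which binds Rab4 and Rab5, and Fyco1 (0.27), which binds Rab7, were higher too. Unc13d, which works with Rab27 proteins in granule priming, gave -0.46, -0.60, -0.47 and -0.87 (mean -0.60 ± 0.19, adjusted p = 0.00320). Sytl3 (-0.43), another Rab27 effector, and Vps45 (-0.34), which works with rabenosyn, were lower, and all 3 of these turned positive under median centring (0.28, 0.15 and 0.39).

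Of the genes listed as GAPs, Tbc1d23 (0.45), Tbc1d25 (0.30) and Tbc1d7 (0.22) were the highest past the threshold. Sgsm3 (-0.58), Tbc1d9b (-0.46) and Tbc1d10a (-0.38) were the lowest, and the last 2 turned positive under median centring (0.44 and 0.38). A place on this list does not show that a gene's protein has GAP activity on a Rab, which was not measured here. Chm, the Rab escort protein that presents new Rabs for prenylation, gave 0.33, 0.32, 0.28 and 0.28 (mean 0.30 ± 0.02, adjusted p = 0.00375). Rabac1 (-0.37), a Rab acceptor of Golgi membranes, was lower but turned to 0.93 under median centring.

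**Figure D5:**
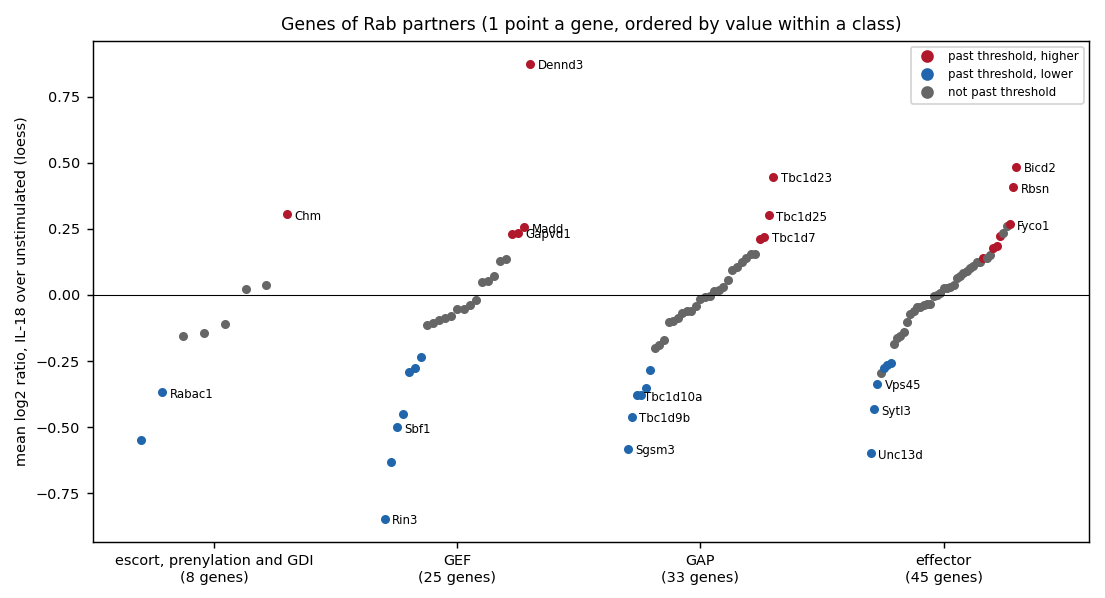
Mean log2 ratio of IL-18 over unstimulated after loess for 111 tested genes of Rab partners, 1 point a gene, by class; red and blue are past an adjusted p of 0.05. The extremes, Dennd3 at 0.88 and Rin3 at -0.85, are both GEFs, and Rin3 turns to 0.09 under median centring.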

How the data were processed

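RNA of IL-18 stimulated (Cy5) and unstimulated (Cy3) mast cells of 4 biological replicates was hybridised in pairs to Agilent 4x44K arrays, per the labels. Total RNA came from columns with DNase digestion, per the labels' protocols. No genome build is needed for the ratios, and none is named by the file headers. The intensities used are the deposited mean spot intensity and median local background of each channel, uncorrected, from Agilent Feature Extraction 9.1 per the file headers. The authors' log10 ratio, which the software background-subtracted and dye-normalized per the file headers, and the deposited series table of log10 ratios (within 0.00496 of it in every row) served as alternatives, put on the log2 scale.

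With limma 3.58.1 in R 4.3.3, background was corrected by normexp (offset 50), log2 ratios were normalized within arrays by loess (controls and outlier-flagged spots without weight), and spots of a probe were averaged. A probe entered the test if the software marked it well above background on 3 or more of the 4 arrays in 1 channel and it had 3 or more values; this left 24104 probes. Their mean ratios were tested against 0 (lmFit, eBayes, two-sided) and called at a Benjamini-Hochberg adjusted p under 0.05. The ratio is the difference within a pair, so this is the paired test. The number of arrays, 4, limits the precision, and an exact sign-flip test cannot go below 0.125. Steps were tested on simulated data.

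Names are the array's; 83 of 102 Rab probes had a current symbol in a RefSeq table of GRCm38.p6 (Rab1, Rab2 and Rab6 are now Rab1a, Rab2a and Rab6a). Values by array are given for up to 8 of the largest called rises and falls whose sign was shared by all arrays, for Rab3a, Rab3d, Rab4a, Rab5a, Rab7, Rab8a, Rab11a, Rab12, Rab27a, Rab27b and Rab37, and for the 3 largest rises and falls past the threshold in each class of partners as means. Some partners chosen in this way are left out here. Other genes and probes were named after their values were seen. Members, role lists and partner lists were chosen with earlier results of these data known. Median centring, the scanner software's and series table's ratios, scaling between arrays, other background and filter settings, trend and robust variance, slide blocks, single slides, an unpaired fit, the mean of a gene's probes and leaving out each array were tried as alternatives.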

Additional observations from a re-analysis of the deposited data

Results flagged for a closer look

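In 5 of the 73 sets of 4 array values checked (Rab genes and probes, partner genes and pairs), 1 array stood apart from the other 3 by Dixon's test on the gap to the nearest neighbour over the whole range, at its critical value for 4 samples, which chance passes in about 1 of 20 groups. The log2 ratio of Rab1 was 0.47 on replicate 1 against 0.28 to 0.29 on the others, the gap being 0.964 of the range; without replicate 1 the mean was 0.28 (limma adjusted p = 0.00623). The log2 ratio of Rab7 was -0.15 on replicate 4 against 0.08 to 0.10 on the others, the gap being 0.939 of the range. The difference Rab8b minus Rab8a was 1.09 on replicate 4 against 0.53 to 0.60 on the others (gap 0.877 of the range), and Rab33b minus Rab33a was 0.54 on replicate 4 against 0.14 to 0.17 (gap 0.934). The difference Rab27b minus Rab27a was -0.49 on replicate 1 against 0.14 to 0.25 (gap 0.851). The causes were not tested.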

How the results depend on the processing

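Counts are given as higher and lower of Rab genes, Rab probes and partner genes, which were 6 and 7, 12 and 15, and 16 and 21. Median centring gave 37 and 0, 53 and 2, and 68 and 0, with a median Rab log2 ratio of 0.82 in place of 0.01. It reversed Rab11a (0.95), Rab12 (0.68), Rab19 (0.81), Rab1b (0.40), Rab27a (0.44), Rab27b (0.93), Rab35 (0.69), Rab37 (0.95), Rab3d (0.67), Rab4b (0.089), Rab5c (0.61) and Rab8a (0.30), other probes of Rab18 (0.80), Rab1b (0.51), Rab27b (0.13), Rab6 (0.23), Rab7 (0.56) and Rab8a (0.095), and the partners Rabac1 (0.93), Rin3 (0.094), Sytl3 (0.15), Tbc1d10a (0.38), Tbc1d9b (0.44), Unc13d (0.28) and Vps45 (0.39). Scale normalization between arrays gave 0 and 0 for all 3 sets and for all 24104 probes in limma, with 3 and 3 Rab genes, 4 and 10 Rab probes and 10 and 20 partners at an unadjusted p under 0.05 (the main setting had 8 and 8 Rab genes), a median of 0.037, and reversed Rab27a (0.30), Rab3d (0.039), Rab5a (-0.018) and the second Rab18 probe (0.018). The cause was not tested.

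The scanner software's and the series table's ratios gave 25 partners higher and a Rab median of 0.049 each. No background correction gave partners 25 and 32 and reversed Rab5a (-0.011) and the second Rab1 probe (-0.0060), and trend with robust variance gave 25 partners higher. The mean of a gene's probes gave 11 Rab genes lower, without a share of all genes to set beside it. Slide 1 alone gave 10 partners higher and a Rab median of 0.035, and reversed Rab27a (0.12), Rab3d (0.024), Rab5a (-0.029) and the second Rab18 probe (0.034); slide 2 alone gave 3 Rab genes, 5 Rab probes and 7 partners higher and reversed Rab7 (-0.031) and the second Rab1 probe (-0.00062). Leaving out 1 array gave 1 to 8 Rab genes higher and 4 to 8 lower, 2 to 12 Rab probes higher and 5 to 18 lower, and 4 to 18 partners higher and 5 to 27 lower; Rab37 ranged from -0.052 to 0.0020 and Rab5a from -0.017 to 0.016, both turning without replicate 4, and the second probes of Rab1 from -0.013 to 0.056 and of Rab26 from -0.035 to 0.0054. With no replicate block (channels as unpaired samples), 5 Rab genes were higher and 6 lower, so the pairing moved these counts little. Over all tested probes, counts at an unadjusted p under 0.05 in limma moved as well. They were 7055 higher and 5414 lower with trend and robust variance, and 5144 and 4881 with no replicate block. Without replicate 1 they were 6008 and 6127, and without replicate 4 they were 5669 and 4623. Shares over all tested probes at the adjusted threshold are not given here for these settings. The counts are therefore not read as particular to Rab or partner genes. Of 102 Rab probes, 14 were above background in neither channel on any array and give no ratio.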

Other observations

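A few Rab genes stand on the array under older names that are not Rab followed by a number. By current RefSeq symbol these were Rab43 (4 tested probes), Rab29 and Rab7b (1 each). Rab7b, a late endosome Rab of myeloid cells, was lower (-0.36 ± 0.18, SD, n = 4; limma adjusted p = 0.0128). Rab29, which acts at the Golgi and lysosomes, gave 0.15 ± 0.13 (adjusted p = 0.0933), and the 4 Rab43 probes ran from -0.16 to 0.01 with adjusted p from 0.0564 to 0.844.

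Over the 48 tested Rab genes, replicates 2 and 3, which lay on different slides, were the arrays most alike (r = 0.95) and replicates 1 and 4 the least (r = 0.38). The corresponding correlations over all tested genes were 0.91 and 0.61. These are correlations across genes, which are not independent replicates.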
